A study of Mus musculus with 14 samples.

Results

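The granulosa AMH, inhibin and follistatin genes are 9 genes whose levels are followed here in the ovary and uterus of aged mice. They are Amh, Amhr2, Inha, Inhba, Inhbb, Fst, Foxl2, Kitl and Fshr, and they were taken by symbol, not by their values, from the 21853 genes of the deposited table. All 9 were found once each. Their products are the secreted factors AMH, inhibin, activin, follistatin and KIT ligand, the receptors of AMH and FSH, and the transcription factor FOXL2.

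The mice were 28-week-old C57BL/6J females, and 14 RNA-seq libraries were analyzed, 1 from the ovary and 1 from the uterus of 7 mice. The 4 OT mice were injected through the tail vein with AMSC-CM, medium conditioned by mesenchymal stem cells of human amniotic membrane and pooled over donors. They received 1 µL per g of body weight, 6 times, with 4 days between injections. The 3 OC mice were given normal saline and not unconditioned medium. Mice of both groups had first been given 10 IU of PMSG, a gonadotropin with FSH activity, and 48 h later 10 IU of hCG, which acts on the LH receptor, so no ovary was free of prior gonadotropin. Levels are FPKM, the number of fragments divided by the length of the transcript and by the mapped fragments of the library.

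Granulosa cells surround the oocyte and make estradiol under FSH, which acts through its receptor FSHR. They also secrete AMH, a hormone of small growing follicles that slows the recruitment of further follicles and signals through its type II receptor AMHR2. Inhibin is a dimer of an alpha subunit (INHA) and a beta subunit (INHBA or INHBB) and lowers FSH release from the pituitary, whereas dimers of beta subunits alone are activins, which raise it. Follistatin (FST) binds and blocks activin. FOXL2 maintains granulosa cell identity, and KIT ligand (KITL) is the granulosa factor that acts on KIT of the oocyte.

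The ovary libraries carried granulosa, oocyte and luteal markers, while the theca markers were mixed. Of 12 further granulosa markers, 10 were called higher in ovary than in uterus. So were 10 of 10 tested oocyte, 8 of 8 luteal and 6 of 6 oviduct markers. Of 4 theca markers, 2 were called higher and Col15a1 was called lower, while Insl3 was not called. Among uterine and smooth muscle markers, 7 of 8 and 6 of 6 were called lower. A call was a limma adjusted p under 0.05 and a difference of at least 2-fold. Of all 14913 tested genes, 10.5% were called higher in ovary and 20.8% in either direction. The luteal markers were summed to between 5789 and 7280 FPKM in the ovaries. The ovary libraries also held oviduct markers at a summed level of 502.7 to 1013 FPKM, and Hoxa10, a gene of the uterus and lower tract, ranged from 0.572 to 53.4 FPKM among them. The total FPKM of a library lay between 374816 and 577494. Within an ovary library, fewer granulosa cells and less RNA per granulosa cell cannot be told apart.

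Inha was the most abundant member in the ovary. Its levels were 616, 259 and 643 FPKM in OC1 to OC3 and 614, 232, 421 and 410 FPKM in OT1 to OT4. Over the 7 ovaries it averaged 456 ± 172 FPKM (SD, n = 7). The beta subunits were lower, at 60.2 ± 30.4 FPKM for Inhbb and 39.6 ± 24.5 FPKM for Inhba. Lower in the order, neighbours changed places between mice. Inhba was above Kitl (35.5 ± 3.08 FPKM) in 4 of 7 ovaries, and Kitl was above Fst (32.1 ± 9.07 FPKM) in 5 of 7, so that the order of these 3 genes was not fixed beyond their spread. Amhr2 (24.4 ± 5.26 FPKM) followed. Foxl2 (19.6 ± 5.26 FPKM) was above Amh (18 ± 4.80 FPKM) in 5 of 7 ovaries, and Fshr was the lowest member at 2.71 ± 0.987 FPKM.

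The comparison of OC with OT ovaries addressed whether AMSC-CM altered the expression of these genes in the aged ovary. No member was called at a difference of at least 2-fold with an unadjusted p of at most 0.05 by limma (0 of 9), where 0.451% of the 14415 genes tested were called. No gene at all reached an adjusted p under 0.05 in this comparison, and 650 had an unadjusted p of at most 0.05. The OC and OT ovaries overlapped for each of the 9 members, against 5.91% of tested genes whose groups did not overlap. The median log2 difference of the members, OT minus OC, was -0.12, beside -0.01 for all tested genes.

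Amh, the hormone of growing follicles, was 19.2, 9.98 and 18.4 FPKM in the OC ovaries. It was 25.3, 17.4, 14.8 and 20.95 FPKM in the OT ovaries. OC2 was lowest and OT1 highest, and the other ovaries of both groups were interleaved. The log2 difference was 0.34 (SE 0.25, 95% confidence interval -0.24 to 0.91, limma adjusted p = 0.997), an interval that reaches from slightly lower to nearly doubled levels in OT. Its receptor Amhr2 was 27.7, 17.2 and 28.5 FPKM in OC and 30.5, 18.4, 26.9 and 21.7 FPKM in OT. The group means of Amhr2, 24.5 ± 6.33 (n = 3) and 24.4 ± 5.36 FPKM (n = 4), differed by far less than the spread between mice, with a log2 difference of 0.01 (SE 0.22, interval -0.49 to 0.50).

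Among the inhibin and activin subunits, the spread within each group exceeded the difference between groups. Inha, given above for each ovary, had a log2 difference of -0.24 (SE 0.39, interval -1.12 to 0.64). Inhba was 60.5, 9.22 and 73.8 FPKM in OC and 48.1, 8.17, 35.1 and 42.1 FPKM in OT. One OC and one OT ovary were thus far below the rest, and the log2 difference of -0.32 carried an SE of 0.81 and an interval of -2.18 to 1.53. Inhbb was 76.0, 21.6 and 101.7 FPKM in OC and 89.2, 26.1, 52.0 and 54.9 FPKM in OT. Its log2 difference was -0.12 (SE 0.55, interval -1.37 to 1.14), and the low ovaries were again OC2 and OT2. The intervals of Inhba and Inhbb include a 2-fold change in either direction.

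Fst, the activin antagonist, was 41.3, 23.0 and 44.0 FPKM in OC and 30.7, 18.7, 33.5 and 33.2 FPKM in OT. The log2 difference was -0.30 (SE 0.27, interval -0.91 to 0.32), and 3 of 4 OT ovaries lay between the OC values. Foxl2 was 15.6, 15.2 and 22.6 FPKM in OC and 29.3, 18.4, 21.5 and 14.7 FPKM in OT. OT ovaries held both the lowest and the highest Foxl2 value, with a log2 difference of 0.21 (SE 0.23, interval -0.31 to 0.74). Fshr was 2.99, 2.08 and 3.40 FPKM in OC and 4.30, 1.26, 2.21 and 2.73 FPKM in OT, a log2 difference of -0.20 (SE 0.37, interval -1.05 to 0.65). The FSH receptor also had its extremes in the OT group.

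Kitl was the steadiest member. It was 38.3, 31.8 and 37.2 FPKM in OC and 36.7, 30.5, 38.0 and 35.9 FPKM in OT. The log2 difference was -0.02 (SE 0.10), and its interval of -0.24 to 0.20 did not reach a 2-fold change in either direction. Adjusted p values by limma for the 9 members in the ovary ran from 0.997 to 1.

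**Figure D1:**
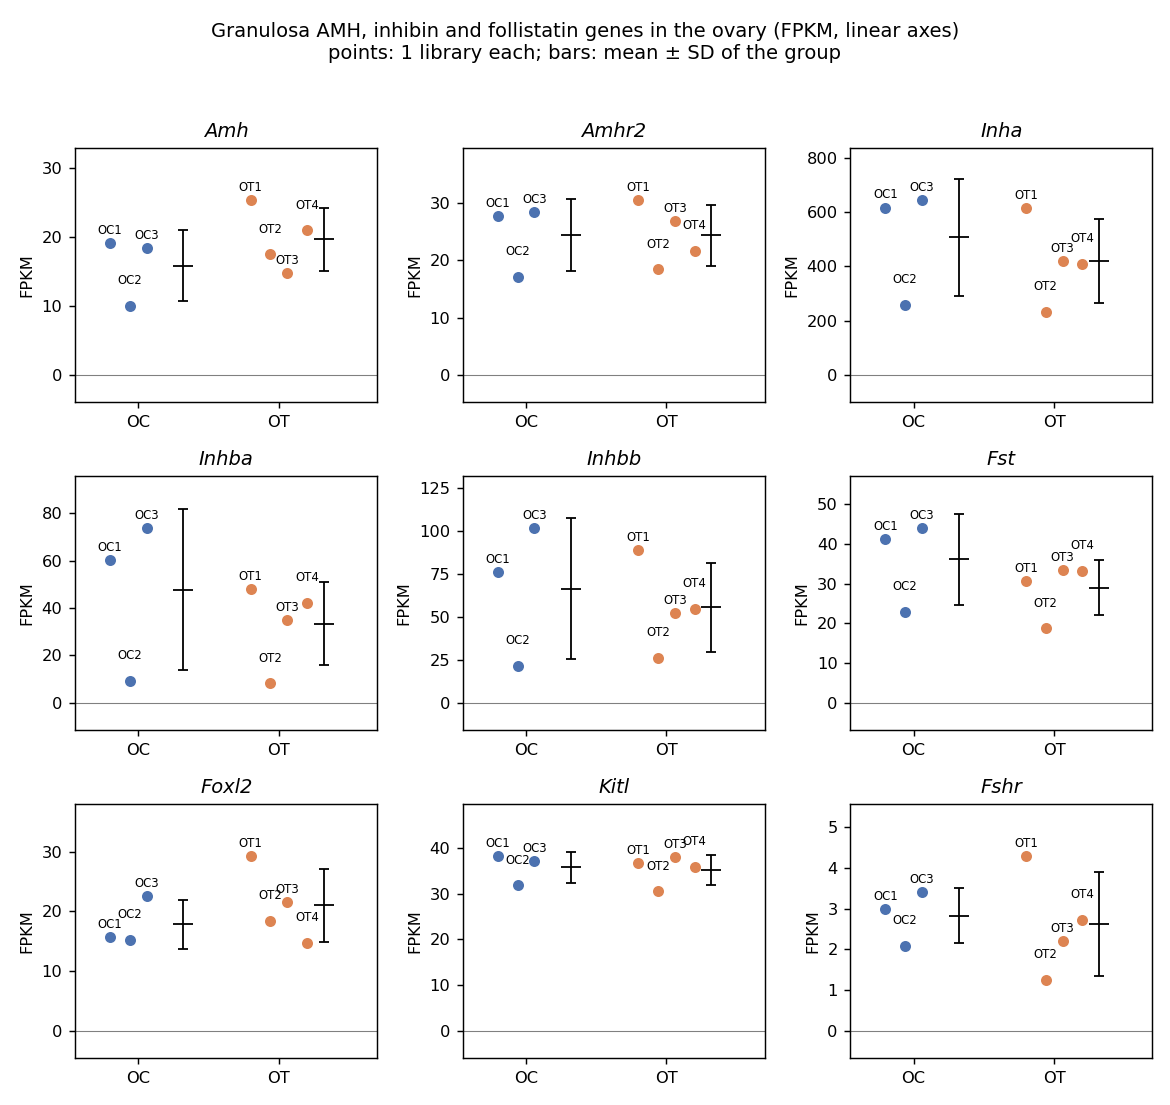
FPKM of the 9 genes in the ovary, 1 panel per gene with a linear axis, with 1 point per mouse and bars for the mean ± SD of the 3 OC and 4 OT mice. The groups overlap in every panel, and OC2 and OT2 are the lowest ovaries for Amhr2, Inha, Inhba, Inhbb, Fst, Kitl and Fshr.

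The larger difference was between mice of the same group. OC2 and OT2, 1 mouse of each group, were the lowest ovaries for 7 of the 9 members, with Amh and Foxl2 as the exceptions. For Inhba they stood at 9.22 and 8.17 FPKM while the other 5 ovaries lay between 35.1 and 73.8 FPKM. For Inha they stood at 259 and 232 FPKM below a range of 410 to 643 FPKM. For Inhbb they stood at 21.6 and 26.1 FPKM below a range of 52.0 to 101.7 FPKM. The gap was narrower for Kitl, at 31.8 and 30.5 FPKM below a range of 35.9 to 38.3 FPKM. For Fshr it was nearly closed, with 2.08 FPKM in OC2 against 2.21 FPKM in the next ovary. OC2 and OT2 were the lowest ovaries for 851 of 14415 tested genes (5.9%). These libraries were picked out after their values were seen, so this is a description without a test.

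Amh did not follow this order in OT2, whose 17.4 FPKM was above the 14.8 FPKM of OT3. The ratio of Amh to Fshr was 13.9 in OT2, against 4.79 to 7.68 in the other 6 ovaries. OT2 had the lowest Fshr of all ovaries, at 1.26 FPKM, while its Amh was near the median of 18.4 FPKM. The ratio of Inha to both beta subunits together was 8.37 in OC2 and 6.77 in OT2, and lay between 3.66 and 4.83 in the others, so in OC2 and OT2 the alpha subunit was less low than the beta subunits. The fold between the highest and lowest ovary was 9.03 for Inhba, 4.70 for Inhbb, 3.42 for Fshr and 2.77 for Inha, but 1.26 for Kitl. On the log2 scale the range of Inhba exceeded that of 98.5% of tested genes and that of Inhbb 96.6%, whereas the range of Kitl exceeded that of 28.8%.

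Many, but not all, genes of the same cells and of the oocyte were also lowest in OC2 and OT2. Cyp19a1, the aromatase that makes estradiol, was 11.6, 2.55 and 14.7 FPKM in OC and 11.7, 1.72, 8.70 and 7.94 FPKM in OT. Hsd17b1, which converts estrone to estradiol, was 89.1, 22.3 and 99.2 FPKM in OC and 77.8, 25.2, 58.8 and 65.5 FPKM in OT. OC2 and OT2 were the lowest ovaries for 8 of 12 further granulosa markers and for 10 of 10 tested oocyte markers, including Gdf9, Bmp15 and Zp3. Some of these margins were narrow. OC2 held 3.925 FPKM of Bmp15 and 5.93 FPKM of Padi6, where the lowest values outside OC2 and OT2 were 3.99 and 6.07 FPKM. The granulosa exceptions were Nr5a2, Nr5a1, Wt1 and Gatm. Nr5a2 was 84.0 FPKM in OC2 and 97.7 FPKM in OT2, within the 65.2 to 101.2 FPKM of the others. The oocyte markers Ddx4 and Figla averaged under 0.5 FPKM and were untested. Ddx4 was highest in OC2 and OT2, at 0.642 and 0.596 FPKM, and Figla was not lowest in them. OC2 and OT2 were also the lowest for 2 of 4 theca markers, Cyp17a1 and Aldh1a1. They were the lowest for 0 of 8 luteal, 0 of 6 oviduct, 0 of 6 smooth muscle and 0 of 8 adipocyte markers. The summed smooth muscle markers were highest in OC2, at 2744 FPKM, with 1795 FPKM in OT2 and 874 to 2245 FPKM in the others. The summed uterine markers were also highest in OC2, at 184.7 FPKM, with 81.6 FPKM in OT2 and 68.9 to 164.7 FPKM in the others. The summed oocyte markers were 33.0 FPKM in OC2 and 24.6 FPKM in OT2, and 37.6 to 58.0 FPKM in the other ovaries. Hoxa10 was 53.4 FPKM in OC2 and 6.09 FPKM in OT2, and 0.572 to 48.9 FPKM in the other ovaries. The part of follicle number, of cycle stage and of tissue sampling in these values was not tested.

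Without the OC2 and OT2 ovaries, which left 2 against 3, no member was called either. In that fit Inhba had a log2 difference of -0.69 and Fst one of -0.39, both under 2-fold. Their unadjusted limma p of 0.00307 and 0.00216 became an adjusted p of 0.999 for each. That fit was added after the values had been seen.

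**Figure D2:**
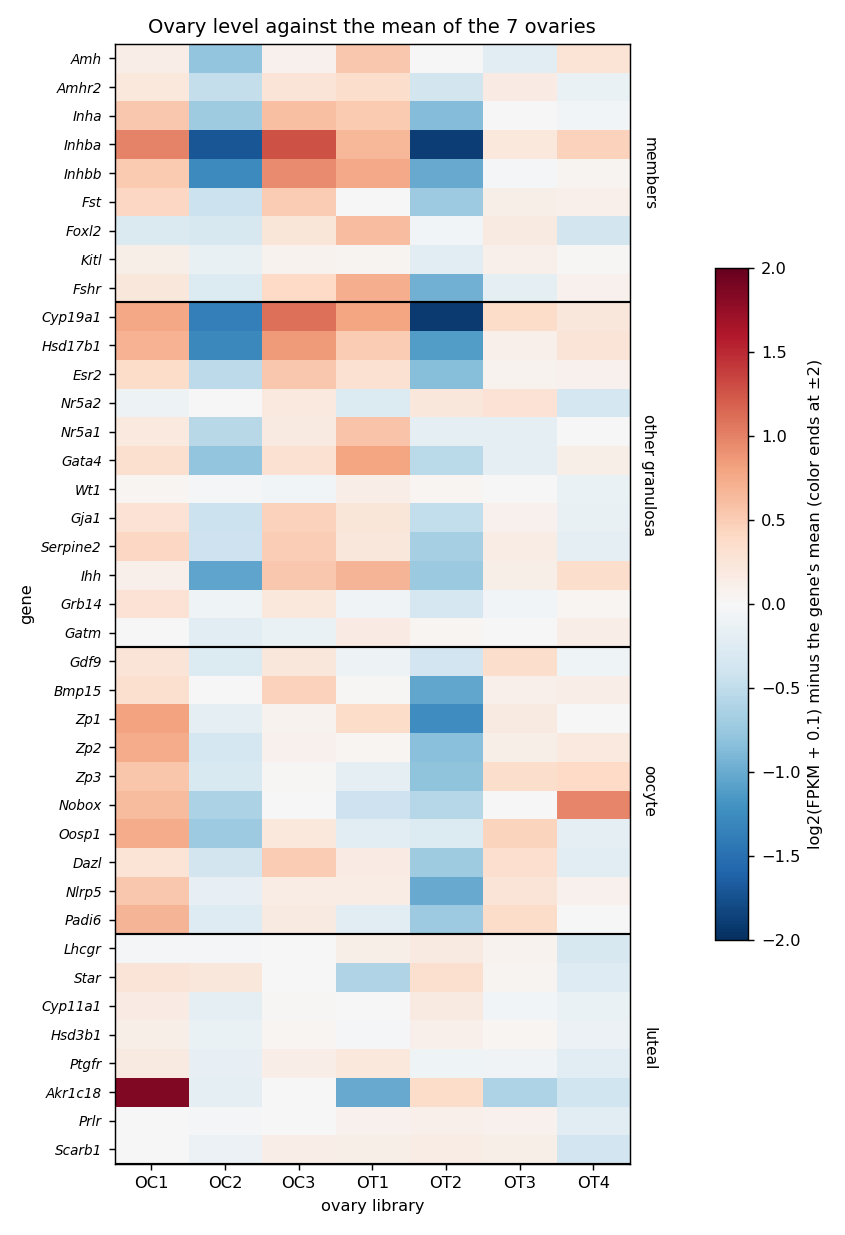
Heatmap of the 9 genes and the further granulosa, tested oocyte and luteal markers (rows) in the 7 ovaries (columns), colored by log2(FPKM + 0.1) minus the mean of the gene over the ovaries. The columns OC2 and OT2 are the lowest for 7 of the 9 genes, with Inhba at 9.22 and 8.17 FPKM against at least 35.1 FPKM elsewhere, and the row of Kitl is nearly uniform.

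Promoter sequences are shown for the 4 members among those 7 low genes whose transcription start was the same in RefSeq and in GENCODE, because OC2 and OT2 were the lowest ovaries for each of them. Inhba lies at chr13:16011851-16031621 on the plus strand and Inhbb at chr1:119415465-119422248 on the minus strand of GRCm38. Amhr2 lies at chr15:102445367-102454633 on the plus strand and Fshr at chr17:88984952-89200675 on the minus strand. Each line holds the 250 bases upstream of the start from RefSeq (GRCm38.p6), 5′ to 3′ along the strand of the gene, with motif matches in capitals. The regions are chr13:16011601-16011850 for Inhba, chr1:119422249-119422498 for Inhbb, chr15:102445117-102445366 for Amhr2 and chr17:89200676-89200925 for Fshr.
Inhba: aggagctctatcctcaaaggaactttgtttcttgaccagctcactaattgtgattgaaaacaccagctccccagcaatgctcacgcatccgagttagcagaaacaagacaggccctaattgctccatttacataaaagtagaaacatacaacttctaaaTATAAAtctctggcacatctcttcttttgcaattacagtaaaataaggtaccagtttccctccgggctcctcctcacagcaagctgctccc
Inhbb: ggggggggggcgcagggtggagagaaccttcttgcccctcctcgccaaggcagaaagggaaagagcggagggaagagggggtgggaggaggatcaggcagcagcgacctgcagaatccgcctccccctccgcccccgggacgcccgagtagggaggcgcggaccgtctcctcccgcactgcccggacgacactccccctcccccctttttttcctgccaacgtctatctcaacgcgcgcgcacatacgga
Amhr2: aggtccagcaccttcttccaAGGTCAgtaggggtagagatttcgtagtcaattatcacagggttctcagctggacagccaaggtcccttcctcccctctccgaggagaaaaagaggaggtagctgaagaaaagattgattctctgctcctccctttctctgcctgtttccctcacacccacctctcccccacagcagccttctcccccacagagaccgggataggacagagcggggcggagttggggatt
Fshr: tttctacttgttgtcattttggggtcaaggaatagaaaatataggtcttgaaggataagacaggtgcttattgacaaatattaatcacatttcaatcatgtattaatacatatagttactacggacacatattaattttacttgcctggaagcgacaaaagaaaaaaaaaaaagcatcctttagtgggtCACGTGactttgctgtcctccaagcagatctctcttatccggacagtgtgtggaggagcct
The motifs were searched on both strands. Inhba held a TATA box, TATAAA, with its first base at -91, as did 12.4% of 32851 RefSeq promoters in windows of 250 bases. Amhr2 held the half-site of NR5A factors, AGGTCA, at -230, a motif in 14% of promoters. Fshr held an E-box, CACGTG, at -61, a motif in 6.02% of promoters. None of these promoters held the cAMP response element TGACGTCA, which 1.55% of promoters hold, and Inhbb held no match at all. No motif was shared by these 4 promoters and no matches overlapped. A match is a run of letters and does not show that a factor binds there.

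The remaining members lie at chr10:80805243-80807648 (Amh, plus), chr1:75507077-75510366 (Inha, plus), chr13:114452290-114458951 (Fst, minus), chr9:98955288-98958543 (Foxl2, plus) and chr10:100015630-100100416 (Kitl, plus) of GRCm38. Inhba, Fst and Foxl2 overlap antisense genes on the opposite strand, and their reads were quantified with strand.

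The members were then compared between tissues within each mouse, which asked how far their expression was particular to the ovary. Of the 9 members, 7 were called higher in ovary, where 10.5% of 14913 tested genes were called in that direction and 20.8% in either direction (limma on within-mouse differences, adjusted p under 0.05 and at least 2-fold). The median log2 difference of the members was 3.93, beside 0.01 for all tested genes. Inha differed most among the members with uterine signal, with a log2 difference of 6.91 (SE 0.29, limma adjusted p = 5.23e-07), a 119.9-fold difference. Amh followed at 5.87 (SE 0.42, limma adjusted p = 8.92e-06), Inhba at 4.43 (SE 0.36, limma adjusted p = 1.68e-05) and Amhr2 at 3.93 (SE 0.31, limma adjusted p = 1.48e-05). Each was higher in the ovary of 7 of 7 mice. Amh averaged only 0.261 FPKM in the uteruses, so the size of its difference leans on the pseudocount of 0.1. Its log2 difference ran from 3.88 to 6.72 over 13 alternatives, and it was called in each.

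Smaller differences were seen for Foxl2, at 1.6 (SE 0.38, limma adjusted p = 0.00682), and for Inhbb, at 1.35 (SE 0.16, limma adjusted p = 0.000158). For Foxl2 the difference within a mouse ran from 0.47 in OC2 to 4.61 in OT1, and for Inhbb from 0.61 in OC2 to 2.08 in OC1. Kitl was 1.44-fold higher in ovary, in 7 of 7 mice (log2 difference 0.53, SE 0.08, limma adjusted p = 0.000803), which was below the 2-fold limit. Fst was higher in the ovary of 6 of 7 mice and was not called (0.32, SE 0.14, limma adjusted p = 0.0879). Fshr was listed at 0 in all 7 uteruses, so that its call rests on the pseudocount and no fold is given.

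**Figure D3:**
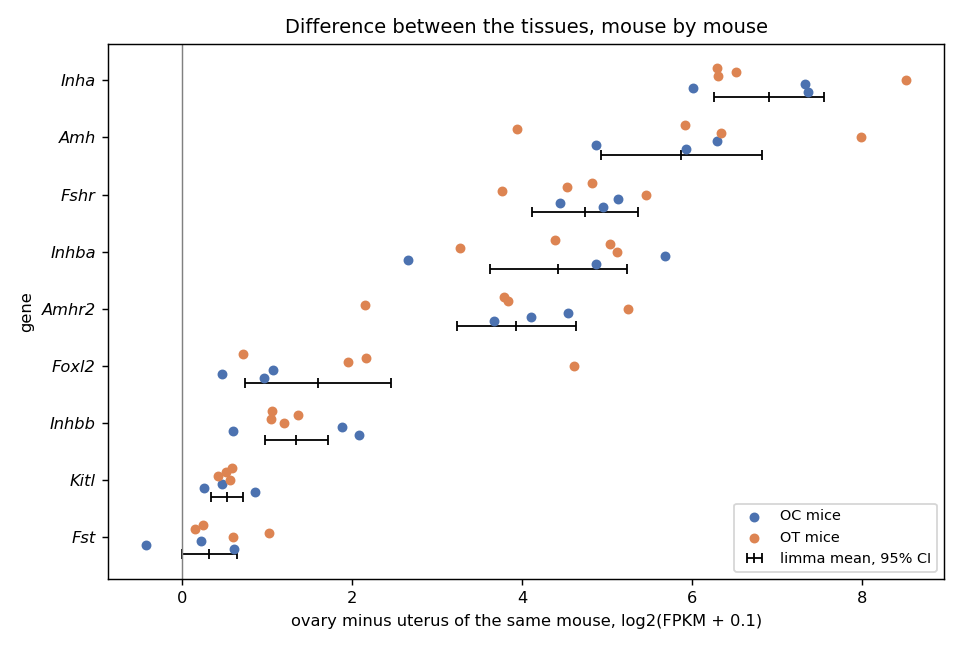
Difference of log2(FPKM + 0.1), ovary minus uterus, for each gene, with 1 point per mouse and the limma estimate with its 95% confidence interval. Inha, Amh, Inhba and Amhr2 lie far above 0 in all 7 mice, Kitl and Fst lie near 0, and Fshr is drawn against uteruses that are all listed at 0.

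In the uterus the order of the members was different. Fst (26.1 ± 9.1 FPKM), Kitl (24.6 ± 2.22 FPKM) and Inhbb (22.4 ± 9.08 FPKM, each n = 7) were the most abundant and were not ordered beyond their spread, since Fst was above Kitl in 5 of 7 and Kitl above Inhbb in 4 of 7 uteruses. Foxl2 (6.98 ± 3.62 FPKM), Inha (3.64 ± 1.15 FPKM), Amhr2 (1.73 ± 1.14 FPKM) and Inhba (1.38 ± 0.450 FPKM) came next, and Amhr2 was above Inhba in 3 of 7. Amh was 0.261 ± 0.282 FPKM, below the minimum mean of 0.5 FPKM for the test between groups. The balance of the subunits was therefore unlike that of the ovary. Inha was 3.66 to 8.37 times the summed beta subunits in the ovaries but 0.0394 to 0.252 times that sum in the uteruses, and Inhbb was 1.26 to 3.20 times Inhba in the ovaries but 9.03 to 30.1 times in the uteruses. On the FPKM scale beta subunit mRNA thus exceeded alpha subunit mRNA in every uterus, and the alpha subunit exceeded both in every ovary.

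None of the 7 members tested in the uterus was called between OC and OT, where 2.90% of 14151 genes were called and 11.9% had groups that did not overlap. At an adjusted p under 0.05 there was no gene, while 1160 had an unadjusted p of at most 0.05 by limma. The OC and OT uteruses overlapped for all 9 members. The median log2 difference of the tested members was -0.25, beside 0.01 for all genes.

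Foxl2 came nearest to a call. The forkhead gene, which is also expressed in uterine stroma, was 7.92, 10.9 and 10.7 FPKM in OC uteruses. It was 1.10, 4.66, 4.71 and 8.88 FPKM in OT uteruses. The 3 lowest uteruses were OT, and only OT4 lay within the OC range. The log2 difference was -1.31 (SE 0.60, 95% confidence interval -2.68 to 0.06, limma adjusted p = 0.6). Its unadjusted limma p of 0.0584 missed the limit of 0.05, and it passed without OT4, at a log2 difference of -1.70 with an unadjusted limma p of 0.0152, while it was -0.74, under 2-fold, when OT1 was left out. Foxl2 was called in 5 of 16 alternatives, with a limma adjusted p of 0.227 to 0.923 over the 16.

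Markers of other cell types differed between the same uteruses. The 8 uterine markers were summed to 605.5 to 709 FPKM in OC and to 365 to 544 FPKM in OT, and 0 of the 8 were called. Hoxa10 averaged 225 ± 10.9 FPKM in OC and 165 ± 22.5 FPKM in OT without overlap. The 8 adipocyte markers were summed to 58.8 to 181 FPKM in OC and to 730 to 8529 FPKM in OT, and 8 of 8 were called higher in OT. The adipocyte sum was highest in OT1, the uterus with the lowest Foxl2. The summed smooth muscle markers were 7753 to 9086 FPKM in OC and 9555 to 14470 FPKM in OT. Their part in the Foxl2 values was not tested.

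Fst was 27.0, 30.7 and 37.7 FPKM in OC uteruses and 20.2, 9.17, 30.0 and 27.9 FPKM in OT uteruses. Its log2 difference was -0.66 (SE 0.39, interval -1.56 to 0.23, limma adjusted p = 0.625), with 2 OT uteruses below and 2 within the OC range. Inhbb was 17.9, 14.2 and 27.5 FPKM in OC and 38.6, 12.5, 20.2 and 26.3 FPKM in OT, with a log2 difference of 0.24 (SE 0.38, interval -0.64 to 1.11). OT uteruses held both extremes of this activin subunit. Inhba was 1.98, 1.38 and 1.34 FPKM in OC and 1.28, 0.755, 0.977 and 1.92 FPKM in OT. Inha was 3.64, 3.92 and 3.91 FPKM in OC and 1.57, 2.83, 4.48 and 5.12 FPKM in OT. Both subunits overlapped between groups, with log2 differences of -0.37 (SE 0.37) and -0.25 (SE 0.38).

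Amhr2 was 2.08, 0.902 and 1.13 FPKM in OC uteruses and 0.705, 4.07, 1.79 and 1.47 FPKM in OT uteruses. OT2 was highest and OT1 lowest, and the log2 difference was 0.36 (SE 0.55, interval -0.92 to 1.63). Amh was 0.216, 0.244 and 0.135 FPKM in OC and 0, 0.117, 0.869 and 0.247 FPKM in OT, under 1 FPKM in every uterus. Kitl was 20.98, 26.6 and 26.7 FPKM in OC and 24.7, 22.6, 26.5 and 23.9 FPKM in OT. KIT ligand was again the member that varied least between groups, with a log2 difference of -0.01 (SE 0.14, interval -0.32 to 0.30).

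**Figure D4:**
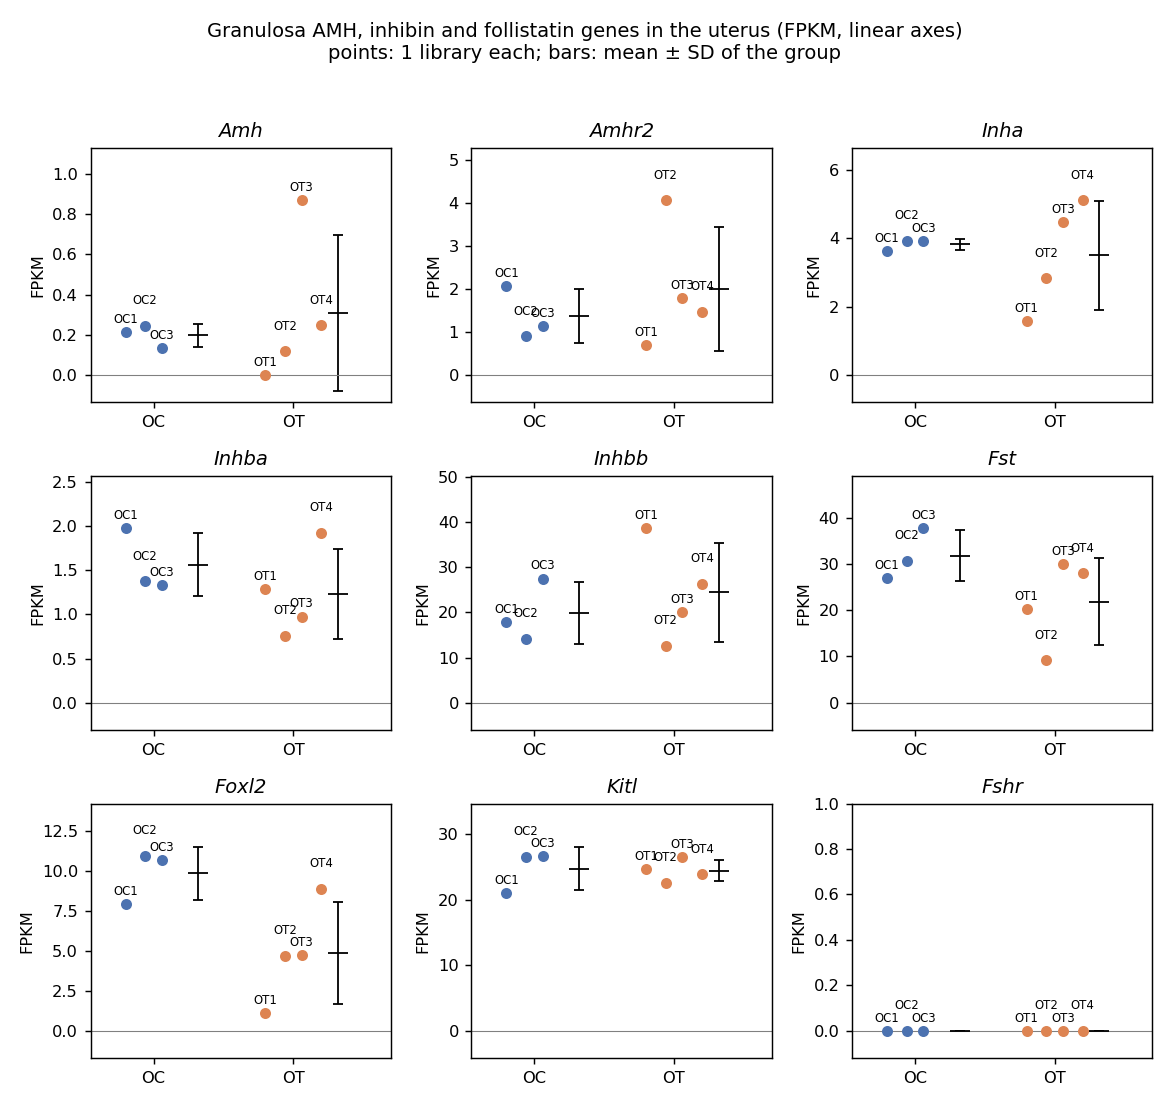
FPKM of the 9 genes in the uterus, drawn as for the ovary with 1 point per mouse and bars for the mean ± SD of 3 OC and 4 OT mice. Foxl2 is lower in OT1, OT2 and OT3 than in all OC uteruses while OT4 (8.88 FPKM) lies among them, Fshr is listed at 0 in all 7, and the lower bar of Amh in OT extends below 0 because its SD exceeds its mean.

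Whether the OT effect differed between the tissues was tested on the same within-mouse differences. No member was called (0 of 9), where 2.55% of 14913 tested genes were called. The nearest was Foxl2, with a log2 OT effect in ovary minus uterus of 1.53 (SE 0.75, interval -0.19 to 3.24, limma adjusted p = 0.808). For Amh the difference of effects was 0.35 (SE 0.83), and for Inha it was 0.01 (SE 0.57). The count of genes with an adjusted p under 0.05 in this limma test was 0, and 856 had an unadjusted p of at most 0.05.

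**Figure D5:**
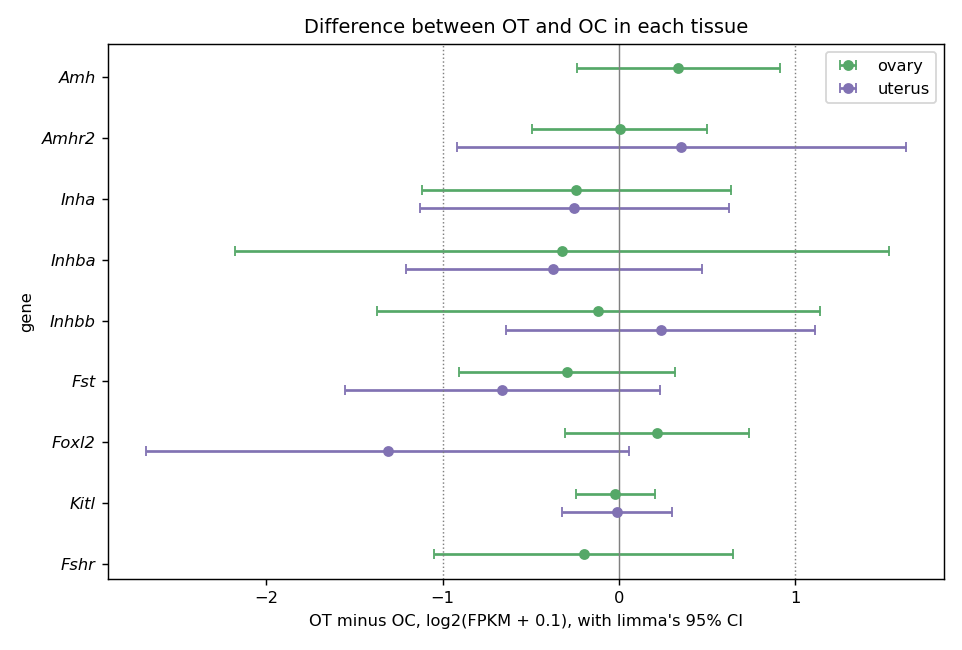
Difference of log2(FPKM + 0.1), OT minus OC, for each gene in ovary and uterus, with the 95% confidence interval from limma. All intervals include 0, that of Foxl2 in the uterus (-2.68 to 0.06) lies mostly below it, that of Inhba in the ovary is the widest in the ovary (-2.18 to 1.53), and Amh and Fshr have no uterine value because they were below the minimum level.

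The members act through a wider set of receptors, SMAD proteins and related ligands, of which 32 genes were listed. In the ovary 30 were tested and 1 was called, higher in OT, where 0.451% of all tested genes were called. In the uterus 28 were tested and 1 was called, higher in OT, a share near the 2.90% of all tested genes. It was the same gene, Acvr1c, which encodes ALK7, a type I receptor for activin B and nodal-related ligands that adipocytes also express. It was 0.855, 1.23 and 1.25 FPKM in OC ovaries and 5.27, 3.90, 1.52 and 1.71 FPKM in OT ovaries, a log2 difference of 1.24 (SE 0.43, limma adjusted p = 0.997) whose call held in 11 of 17 alternatives. In the uterus it was 0.144, 0.876 and 0.704 FPKM in OC and 26.6, 3.59, 7.63 and 3.91 FPKM in OT, a log2 difference of 3.69 (SE 0.76, limma adjusted p = 0.357). OC and OT did not overlap in either tissue. Adipoq, the adipocyte hormone gene, was 8.4 to 28.6 FPKM in OC and 117 to 777 FPKM in OT uteruses, and was highest in OT1 as Acvr1c was. The part of adipocyte RNA in the Acvr1c values was not tested.

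No other receptor of these ligands was called between OC and OT. None of the 8 SMAD genes was called between OC and OT in either tissue, and their summed level was 152 to 165 FPKM in the 7 ovaries. Kit, the receptor of KIT ligand, had a log2 difference of -0.13 (SE 0.23) in the ovary and -0.87 (SE 0.43, limma adjusted p = 0.616) in the uterus. Bambi, a decoy receptor of the family, had a log2 difference of -0.78 (SE 0.27, limma adjusted p = 0.55) in the uterus, under 2-fold. Inhbc and Inhbe, the beta subunits made mainly by liver, were listed at 0 in all ovaries.

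Between tissues, 6 of 30 tested pathway genes were called higher in ovary and 5 lower, where 10.5% of all tested genes were called higher and 20.8% in either direction. The higher ones included the oocyte ligands Bmp15 (log2 difference 4.32) and Gdf9 (3.36), the BMP antagonist Grem1 (4.57), the type I receptor Bmpr1b (2.33) and Smad9 (1.47). The lower ones were Nog (-1.84), Tgfbr3 (-1.45), which encodes betaglycan, the co-receptor of inhibin, Bmp4 (-1.39), Fstl3 (-1.19), a relative of follistatin, and Chrd (-1.02). Grem1 was also lowest in OC2 and OT2, at 0.737 FPKM in OC2 and 0.342 FPKM in OT2 and at 3.34 to 6.4 FPKM in the others.

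The genes whose pattern over the 7 ovaries was most like a member were taken by the Pearson correlation of log2(FPKM + 0.1), as a description. For Amh they were Me2 (r = 0.979), Utp14b (0.977) and Armh1 (0.974). For Inha they were Trib2 (r = 0.992), Prkar2b (0.985) and Arhgap28 (0.984), and for Fshr they were Rasgef1b (r = 0.993), Nfx1 (0.988) and Sart3 (0.982). They were picked as the highest r among the 14415 genes tested in the ovary, members left out, over only 7 points. Of the same genes, 163, 172 and 180 had an r beyond 0.9 in size with Amh, Inha and Fshr. Trib2 followed Inha over a wide range, from 18.1 to 55.6 FPKM, whereas Nfx1 moved only between 28.04 and 32.97 FPKM. Over the 5 ovaries other than OC2 and OT2, r was 0.939 to 0.986 for the genes like Amh, 0.948 to 0.987 for those like Inha and 0.978 to 0.980 for those like Fshr. These 5 ovaries were among the 7 by which the genes were picked, so these values are no separate check.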

How the data were processed

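Total RNA of mouse ovary and uterus had been depleted of rRNA and made into stranded TruSeq libraries. Per the paper's methods and the submitters' processing notes, the authors mapped trimmed reads to mm10 with STAR 2.5, and the deposited FPKM came from Cufflinks 2.2.1 with the strand given. Fractional FPKM hold no counts, so library depth is unknown, no counting error is given and Cuffdiff was not run. Low values are thus the least certain.

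Libraries were grouped by their labels (3 OC and 4 OT per tissue), and ovary and uterus were paired by the mouse name in the labels. Identifiers were named through GENCODE M21. Genes that averaged 0.5 FPKM or more in the tissue were tested with limma 3.58.1 (R 4.3.3, lmFit and eBayes with trend) on log2(FPKM + 0.1), so differences of low genes are understated. Between OC and OT a call was an absolute log2 difference of at least 1 with an unadjusted p of at most 0.05, with Benjamini-Hochberg counts beside it. Between tissues it used the adjusted p. Intervals are 95% confidence intervals of limma. The fits were tested on simulated data.

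The members and gene lists were chosen with earlier results of these data known. The named genes were the members, pathway genes that were called with up to 4 others by role, cell type markers, and 3 like genes each for Amh, Inha and Fshr. Alternatives were a pseudocount of 1 or 0.01, other filters, quantile or upper quartile scaling, robust eBayes, a replicate block, joint fits and leaving out replicates. Of the 9 members, 7 had a promoter in the RefSeq table, and no protein sequence was used here. Further steps were run in Python 3.11.15 with pandas 2.3.3 and numpy 2.4.6, and figures were drawn with matplotlib 3.10.9.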

Additional observations from a re-analysis of the deposited data

Results flagged for a closer look

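Of the 9 members and the 30 tested pathway genes, Acvr1c alone was called for a difference between the tissues in the OT effect. A single call among them is a share near the 2.55% of all 14913 tested genes that were called. The log2 difference between OT and OC was 1.24 for ovaries and 3.69 for uteruses, and the effect in ovary minus that in uterus was -2.45 (SE 0.64, limma adjusted p = 0.741). Its unadjusted limma p of 0.0044 did not hold after correction over all genes. Acvr1c was higher in all 4 OT mice than in all 3 OC mice in both tissues, and the uterine value was highest in OT1. Of the 8 adipocyte markers, 6 were called in the same test and direction. Their sum was 58.8 to 181 FPKM in OC and 730 to 8529 FPKM in OT uteruses, whereas in the ovaries it overlapped, at 119 to 191 FPKM in OC and 144 to 1318 FPKM in OT. Their part in the Acvr1c values was not tested.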

How the results depend on the processing

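No member was called between OC and OT in the ovary under any alternative, and the 7 members called higher in ovary than in uterus stayed 7 in number under every one. The uterine call of Foxl2 did depend on the processing. It was 1 member called, Foxl2, with a pseudocount of 1 (-1.08), with quantile normalization (-1.29), in one fit of all libraries (-1.31) and with the replicate block (-1.70), and 0 to 1 when replicates were left out. For the difference between tissues 1 member was called, again Foxl2 (1.53), in one fit of all libraries without the mouse, and 0 to 1 when replicates were left out (2.07 without OT4). The cause was not tested.

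The number of genes called in the ovary, 65, became 18 with a pseudocount of 1, 159 without a filter on low values, 42 with a filter at 1 FPKM, and 53 to 136 when replicates were left out, the highest without OT3. In the uterus 410 became 259 with a pseudocount of 1 and 307 to 602 without single replicates. With a pseudocount of 1, 3099 genes became 2056 between tissues and 381 became 204 for the difference in the OT effect. The labels do not say whether same-numbered OC and OT mice shared more than a number. Their deviations were correlated at 0.331, 0.045 and 0.08 for ovaries and 0.08, 0.001 and -0.027 for uteruses. The 0.331 of OC1 and OT1 was the highest of the ovary pairs, and differently numbered ovary pairs ran from -0.382 to 0.253. Shared handling was not tested. A fit with that replicate block, without OT4, called 105 ovarian and 666 uterine genes.

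Small differences changed sign. For the ovary, leaving out single replicates moved Amhr2 from -0.23 to 0.13, Inha from -0.67 to 0.016, Inhba from -1.27 to 0.26, Inhbb from -0.79 to 0.32, Kitl from -0.10 to 0.047 and Fshr from -0.47 to 0.093. For the uterus it moved Amhr2 from -0.055 to 0.73, Inha from -0.47 to 0.072, Inhbb from -0.022 to 0.52 and Kitl from -0.13 to 0.046. For the difference between tissues it moved Amh from -0.30 to 1.05, Amhr2 from -0.85 to 0.18, Inha from -0.52 to 0.25, Inhba from -0.82 to 0.69, Kitl from -0.15 to 0.16 and Fshr from -0.47 to 0.093. That difference was -0.063 for Inha and -0.10 for Inhba with a pseudocount of 1, and -0.017 for Inha and 0.033 for Kitl with quantile normalization. Leaving out the OC2 and OT2 mice together, an alternative chosen after seeing the data, gave -0.11 for Amhr2 in the ovary, and for the difference between tissues -0.16 for Amh, 0.18 for Amhr2, -0.23 for Inha, -0.43 for Inhba and -0.082 for Fst. Acvr1c was called in 11 of 17 alternatives in the ovary and in 16 of 16 in the uterus. Depth is unknown, and 3 against 4 mice leave the wide intervals given for Inhba and Inhbb. No correlation between members was computed, because OC2 and OT2 stood apart and the other 5 ovaries are too few.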
